A study of Homo sapiens with 12 samples.

Results

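The genes described here encode 10 splicing factors of the SR family and its close relatives, SRSF1, SRSF2, SRSF3, SRSF4, SRSF5, SRSF6, SRSF7, SRSF11, TRA2A and TRA2B. They were chosen by gene symbol, with earlier results of these data known, so counts of them beside the share of all genes are descriptive. They stand for 10 of the 58290 gene entries in the tables, with 113 of the 200403 transcript models that were quantified. By annotated class, 39 of these models are protein_coding, 21 nonsense_mediated_decay, 35 retained_intron and 18 processed_transcript. RNA came from HEK-293T, an established line derived from human embryonic kidney and made with the SV40 T antigen, and was enriched for mRNA and sequenced in 12 libraries. All cells held a CIRTS protein, an RNA-guided effector assembled from human protein parts, and the 4 groups of 3 libraries differ in the effector and the guide RNA. The YTHDF2-SMARCA4 group had the CIRTS-3 effector, which carries YTHDF2 (a protein that binds m6A-marked RNA and promotes its decay), and a guide against SMARCA4, which encodes a chromatin remodelling ATPase. The YTHDF2-NT group had the same effector and a non-targeting (NT) guide, the nuclease-SMARCA4 group the CIRTS-12 nuclease effector and the SMARCA4 guide, and the nuclease-NT group that nuclease and the NT guide. No untreated cells were analysed here. The labels call the samples of a group biological replicates but give neither culture dates nor batches, so that each p-value reflects the spread among these libraries only, and any batch that went with an effector cannot be told apart from it.

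SR proteins bind short motifs in pre-mRNA through RNA recognition motifs and recruit the spliceosome through a domain rich in arginine and serine, which kinases of the CLK and SRPK families phosphorylate. Most SR genes limit their own protein by unproductive splicing: an ultraconserved "poison" exon with an early stop codon is included, or an intron in the 3′ untranslated region is removed, and the mRNA becomes a substrate of nonsense-mediated decay (NMD), which degrades transcripts whose stop codon lies well upstream of an exon junction. A higher level of the protein often promotes the unproductive form. In bulk RNA, fewer cells with a transcript and less of it per cell cannot be told apart.

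Library totals ranged from 9207196 to 18047859 estimated counts. SMARCA4, the guide's target, had 243, 210.2 and 221 CPM (counts scaled to library size) in the YTHDF2-SMARCA4 libraries and 302, 235 and 250.2 CPM in those of YTHDF2-NT. In the nuclease-SMARCA4 libraries it had 239, 250.0 and 219.6 CPM, against 225, 245 and 242 CPM in nuclease-NT, and it passed the test in no comparison. YTHDF2 read 4824 to 8024 CPM across both YTHDF2 groups, against 215 to 284 CPM across both nuclease groups. The HEK-293 markers NEFM (68.9 to 112 TPM) and VIM (367.5 to 467.9 TPM) were present, while PAX2 was low (0.432 to 2.04 TPM). The blood marker HBB and the liver marker SERPINA1 were at 0 in every library, and COL1A2 of fibroblasts reached at most 0.0512 TPM. YTHDF2-NT replicates 1 and 2 stood apart, in opposite directions: across genes, the deviation of a library from the mean followed gene length with a Spearman rho of −0.49 and 0.431 in these libraries, against −0.242 to 0.273 in the other libraries, which include YTHDF2-NT replicate 3 at −0.232. The member estimates that moved most with YTHDF2-NT replicate 1 are given with and without it.

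For 6 of the 10 genes at least 1 NMD model has its stop codon in an exon that the main productive model lacks. The most abundant model of this kind is shown for each gene, since these exons carry the premature stops on which the splicing results turn. The stretch of each exon from its first base to the stop codon is printed from the GENCODE v29 transcripts on GRCh38, the build of the tables, 5′ to 3′ in the sense of the gene, with the premature stop codon in capitals.
SRSF3-203 exon 4: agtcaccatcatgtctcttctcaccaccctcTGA
SRSF4-206 exon 4: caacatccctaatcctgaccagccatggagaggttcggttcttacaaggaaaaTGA
SRSF6-202 exon 3: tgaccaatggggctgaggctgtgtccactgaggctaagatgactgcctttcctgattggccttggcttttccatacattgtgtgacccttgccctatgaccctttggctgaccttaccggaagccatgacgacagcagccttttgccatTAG
SRSF7-204 exon 4: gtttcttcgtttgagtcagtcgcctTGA
SRSF11-212 exon 4: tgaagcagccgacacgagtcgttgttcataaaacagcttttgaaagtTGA
TRA2B-206 exon 2: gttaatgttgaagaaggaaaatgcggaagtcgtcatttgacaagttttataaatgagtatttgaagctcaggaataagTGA

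The SRSF3 stretch lies at chr6:36599821-36599854 on the plus strand, in an exon of 456 bases. The SRSF4 stretch lies at chr1:29166009-29166064 on the minus strand, in an exon of 175 bases. The SRSF6 stretch lies at chr20:43459153-43459304 on the plus strand, in an exon of 268 bases. The SRSF7 stretch lies at chr2:38749319-38749346 on the minus strand, in an exon of 449 bases. The SRSF11 stretch lies at chr1:70231859-70231908 on the plus strand, in an exon of 117 bases. The TRA2B stretch lies at chr3:185931772-185931852 on the minus strand, in an exon of 276 bases. TRA2B-201, the most abundant productive model of TRA2B, has 5 exons and starts downstream of this exon, so it neither carries nor skips it. The longer productive model TRA2B-205 skips it. All 6 stops lie far upstream of the last exon junction of their model, by 548 bases in SRSF3-203, 603 in SRSF4-206, 534 in SRSF6-202, 697 in SRSF7-204, 270.0 in SRSF11-212 and 1015 in TRA2B-206. Of the 6 stops, 5 are TGA and that of SRSF6-202 is TAG. From the exon's first base to the end of the stop are 152 bases in SRSF6, but only 28 in SRSF7 and 34 in SRSF3.

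The other 4 genes are arranged differently. The abundant NMD model of SRSF2, SRSF2-208, shares the stop codon of the productive model, and its last junction lies 105 bases downstream of that stop. The stop of SRSF1-207 lies in exon 3, which overlaps an exon of the main productive model in part, 127 bases before the last junction. SRSF5-211 was listed at 0 in every library, and TRA2A-203 reached at most 2.35 TPM.

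Per length, SRSF3, the smallest SR protein and an adaptor for mRNA export, was the most abundant member, at 553 TPM (transcript abundance corrected for length) as the mean of the 12 libraries. SRSF1, a founding member that helps recruit the U1 particle to the 5′ splice site, followed with 380.0 TPM, and then SRSF2, a resident of nuclear speckles, with 331 TPM and SRSF7, a second export adaptor with a zinc knuckle, with 325 TPM. TRA2B, a relative of the fly sex-determination factor transformer 2, had 249 TPM and SRSF11, an SR-like protein also called p54, 244 TPM. SRSF5 had 205 TPM, SRSF4 122 TPM, TRA2A 88.7 TPM and SRSF6 70.2 TPM. Over the 12 libraries SRSF7 and SRSF2, and likewise SRSF11 and TRA2B, differed by less than the SD of either gene, which was 33.2 to 48.9 TPM for these 4.

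The share of that abundance on productive models differed widely between the genes. Protein_coding models held 98.3% of the TPM of SRSF4, 85.6% of SRSF7, 83.5% of TRA2B, 78.8% of SRSF3, 76.2% of TRA2A, 74.7% of SRSF6, 57.8% of SRSF5, 46.0% of SRSF1, 41.8% of SRSF11 and 30.7% of SRSF2 (means of 12 libraries). SRSF2 had most of its abundance, 57.8%, on models labelled retained_intron, led by SRSF2-210, and 11.5% on its NMD model. SRSF6 and SRSF1 had the largest NMD shares, 25.3% and 25.6%, from a single NMD model each in practice, SRSF6-202 and SRSF1-207. SRSF3 carried 17.9% on retained_intron models, mainly SRSF3-207, and 3.34% on NMD models. Models labelled processed_transcript, which are not assigned a reading frame, made up 57.1% of SRSF11 and 28.3% of SRSF1. Such splits depend on how far models can be told apart: 68.5% of the 31-base words of SRSF6-201 and 18.1% of those of SRSF6-202 occur in no other model of the gene, but 0% for SRSF2-208, SRSF2-210, TRA2B-206 and SRSF7-204.

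**Figure D1:**
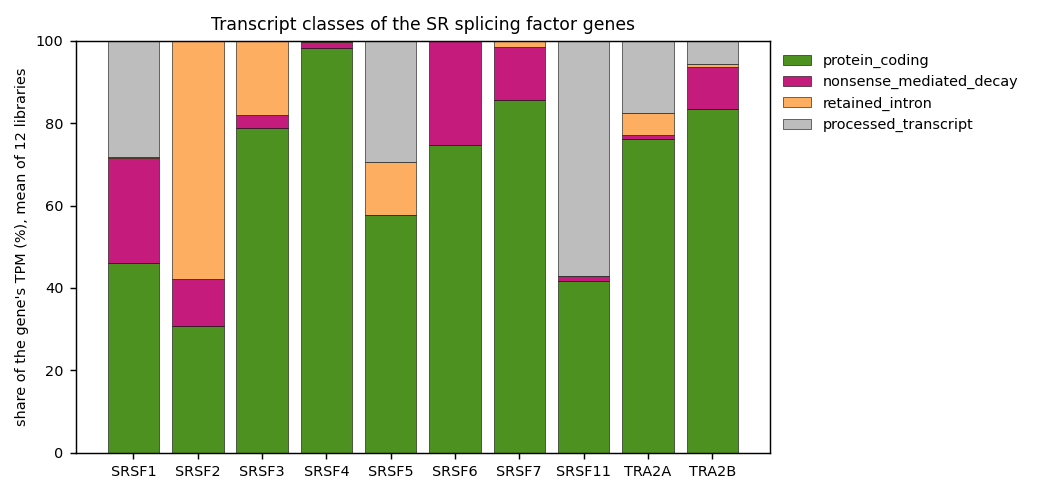
Share of each gene's summed TPM (y axis, percent, mean of the 12 libraries) on protein_coding, nonsense_mediated_decay, retained_intron and processed_transcript models (stacked bars) for the 10 genes (x axis). SRSF4 is almost wholly productive (98.3%), whereas SRSF2 holds 57.8% on retained_intron models and SRSF6 25.3% on its NMD model.

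With the nuclease, the SMARCA4 guide went with lower RNA estimates for nearly the whole family, none of which passed the adjusted test. The point estimate was below 0 for 9 of the 10 genes, from −0.53 for SRSF6 to −0.20 for SRSF5, and 0.00 for SRSF4 (log2 fold change of nuclease-SMARCA4 over nuclease-NT). Among all genes tested 50.1% were below 0. For 7 of the 10 genes every nuclease-SMARCA4 library lay below every nuclease-NT library, against 12.2% of all genes. None of the 10 passed edgeR's quasi-likelihood test after Benjamini-Hochberg adjustment over 16297 genes, where 1 gene in all did (0.00614%). At an unadjusted p below 0.05, 9 members were lower, against 6.23% of all genes, and DESeq2 called SRSF6 and SRSF2. The share of all features that DESeq2 called is not given here or below, so its calls lack that background. The median of the members was −0.23, beside 0.00 for all genes tested.

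SRSF6, an SR protein that binds exonic enhancers, had the largest difference. It read 158, 169.9 and 205 CPM in nuclease-SMARCA4, against 218, 279 and 269.7 CPM in nuclease-NT. The groups did not overlap, and the mean was 178 ± 24.7 CPM against 256 ± 33.1 CPM (SD, n = 3 each). The log2 fold change was −0.53 (SE 0.11, unadjusted p = 0.000369, adjusted p = 0.142 in edgeR), a fitted change of −30.5%. The exact permutation test gave p = 0.1, the smallest that 3 against 3 libraries allow.

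SRSF2 had 277, 292 and 343 CPM in nuclease-SMARCA4, against 367, 399 and 389 CPM in nuclease-NT. Again the groups did not overlap, and the log2 fold change was −0.34 (SE 0.09, unadjusted p = 0.00157, adjusted p = 0.207 in edgeR). SRSF1 had 482, 448 and 518 CPM in nuclease-SMARCA4, against 536, 609 and 614 CPM in nuclease-NT, which put the log2 fold change at −0.28 (SE 0.08, with an adjusted p of 0.236 in edgeR). For SRSF7 the libraries read 286, 288 and 315 CPM in nuclease-SMARCA4, against 327, 382 and 353 CPM in nuclease-NT, which edgeR put at −0.26 on the log2 scale (SE 0.08; adjusted p = 0.267). These 3 genes thus showed no overlap either, with smaller differences than SRSF6.

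SRSF11 averaged 306 ± 20.1 CPM in nuclease-SMARCA4 and 360.1 ± 9.55 CPM in nuclease-NT, and SRSF3 averaged 579.7 ± 42.2 CPM and 666 ± 22.6 CPM in the same order (SD, n = 3 each), both without overlap. TRA2A, the paralog of TRA2B, also did not overlap, at 108, 105 and 115 CPM in nuclease-SMARCA4 against 117, 127 and 133 CPM in nuclease-NT. TRA2B and SRSF5 overlapped between the groups: TRA2B had 268, 272 and 296 CPM in nuclease-SMARCA4, against 290.0, 338 and 352 CPM in nuclease-NT. SRSF4 had 254, 232 and 256 CPM in nuclease-SMARCA4 and 237, 247 and 256 CPM in nuclease-NT, and its interval ran from −0.15 to 0.16 on the log2 scale. Both reporter RNAs in the cells were also at lower estimates in nuclease-SMARCA4, renilla luciferase by −0.88 (adjusted p = 0.142 in edgeR) and firefly luciferase by −0.71 (adjusted p = 0.214), and their part in the result was not tested. With the trend on gene length removed, SRSF6 stood at −0.48 and SRSF2 at −0.35. The count of 9 at an unadjusted p below 0.05 depended on single libraries: it was 4 without nuclease-NT replicate 3, and 5 without nuclease-NT replicate 2, nuclease-SMARCA4 replicate 1 or nuclease-SMARCA4 replicate 2, though 9 or 10 members stayed below 0 each time.

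**Figure D2:**
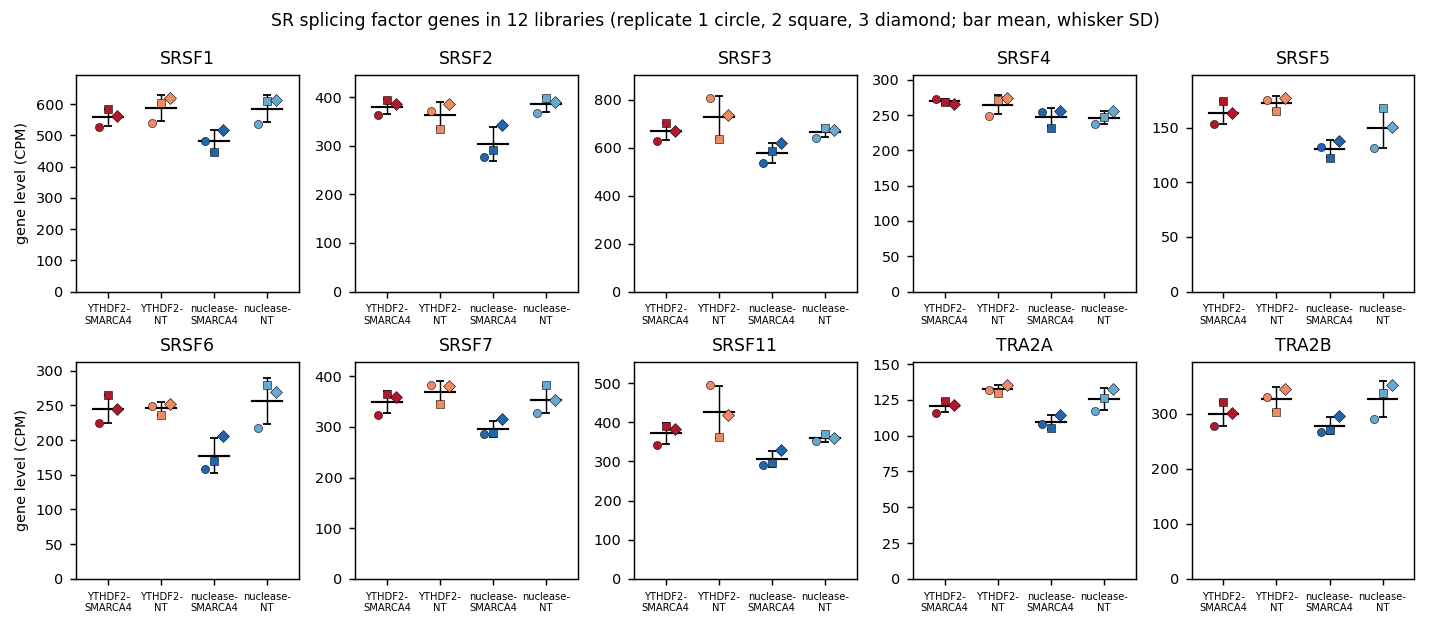
Gene level (y axis, CPM) of the 10 genes in each library, by group (x axis), with points for replicates 1 to 3, a bar for the mean and a whisker for the SD. The nuclease-SMARCA4 libraries form the lowest group for 9 of the genes, for SRSF6 at 158 to 205 CPM against 218 to 279 CPM in nuclease-NT.

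With the YTHDF2 effector the same guide gave estimates nearer 0 for 9 of the 10 genes. The log2 fold changes of YTHDF2-SMARCA4 over YTHDF2-NT ran from −0.20 for SRSF11 to 0.07 for SRSF2, with 8 of 10 below 0 where 51.8% of all genes were. In edgeR 0 of the 10 members were called, as were 0% of all genes, and 0 members had an unadjusted p below 0.05, where 4.39% of all genes were lower and 2.44% higher at that level. DESeq2 also called 0. SRSF6 had 224, 265 and 245 CPM in YTHDF2-SMARCA4 against 249.6, 235 and 252 CPM in YTHDF2-NT, so that the groups overlapped, with an interval of −0.26 to 0.25 on the log2 scale. SRSF2 had 362.5, 394 and 386 CPM in YTHDF2-SMARCA4 and 371, 334 and 386 CPM in YTHDF2-NT. TRA2A was the only member without overlap, averaging 120.4 ± 4.18 CPM in YTHDF2-SMARCA4 against 132.5 ± 2.69 CPM in YTHDF2-NT (SD, n = 3 each), where 4.98% of all genes were lower without overlap (log2 fold change −0.14, adjusted p = 0.703 in edgeR). SRSF11 read 495 CPM in YTHDF2-NT replicate 1, above the 363 and 419 CPM of the other two, and without that library its estimate was −0.07 in place of −0.20. With the trend on gene length removed the SRSF11 estimate was −0.18. Without YTHDF2-NT replicate 2, a fit that keeps replicate 1, SRSF11 was called. The share of all genes called in that fit is not given here, so the call lacks its background.

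The test of the difference between the guide's effects with the 2 effectors gave positive estimates for all 10 genes, meaning that the estimate with YTHDF2 lay above that with the nuclease. The largest were 0.52 for SRSF6 (SE 0.16, unadjusted p = 0.00538, adjusted p = 0.378 in edgeR) and 0.41 for SRSF2 (SE 0.12, unadjusted p = 0.00517, adjusted p = 0.371). Among all genes tested 50.6% were below 0. In edgeR 0 of the 10 were called, as were 0% of all genes, and these 2 had an unadjusted p below 0.05, where 5.12% of all genes were higher at that level. Without YTHDF2-NT replicate 1 these values were 0.53 for SRSF6 and 0.42 for SRSF2, while SRSF4 stood at −0.02 in place of 0.02.

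Set against the nuclease under the SMARCA4 guide, the YTHDF2 effector went with higher RNA estimates for all 10 genes, from 0.11 for TRA2B to 0.46 for SRSF6, where 49.8% of all genes were below 0. This comparison shares the nuclease-SMARCA4 libraries with the nuclease comparison above, so its direction is not separate evidence. Every YTHDF2-SMARCA4 library lay above every nuclease-SMARCA4 library for 9 of 10 genes, against 13.4% of all genes, and 7 had an unadjusted p below 0.05, against 5.93%, a count that was 4 without nuclease-SMARCA4 replicate 1 or YTHDF2-SMARCA4 replicate 2. In edgeR 0 were called, where 0.00614% of all genes were, and DESeq2 called SRSF6 and SRSF2. SRSF5, an SR protein first described in regenerating rat liver, had 154, 174 and 163 CPM in YTHDF2-SMARCA4, against 132, 122 and 138 CPM in nuclease-SMARCA4, with no overlap (log2 fold change 0.33, SE 0.09, adjusted p = 0.253 in edgeR). Under the NT guide the estimates lay on both sides of 0: the log2 fold changes of YTHDF2-NT over nuclease-NT ran from −0.08 for SRSF2 to 0.24 for SRSF11, 0 members were called in edgeR or DESeq2 where edgeR called 0.0491% of all genes, and 2 members, SRSF11 and SRSF5, were higher at an unadjusted p below 0.05, where 6.5% of all genes were. Without YTHDF2-NT replicate 1, SRSF11 stood at 0.12. With the trend on gene length removed it stood at 0.24. Without YTHDF2-NT replicate 2, with replicate 1 kept, it was called, again with no share of all genes given beside the call.

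**Figure D3:**
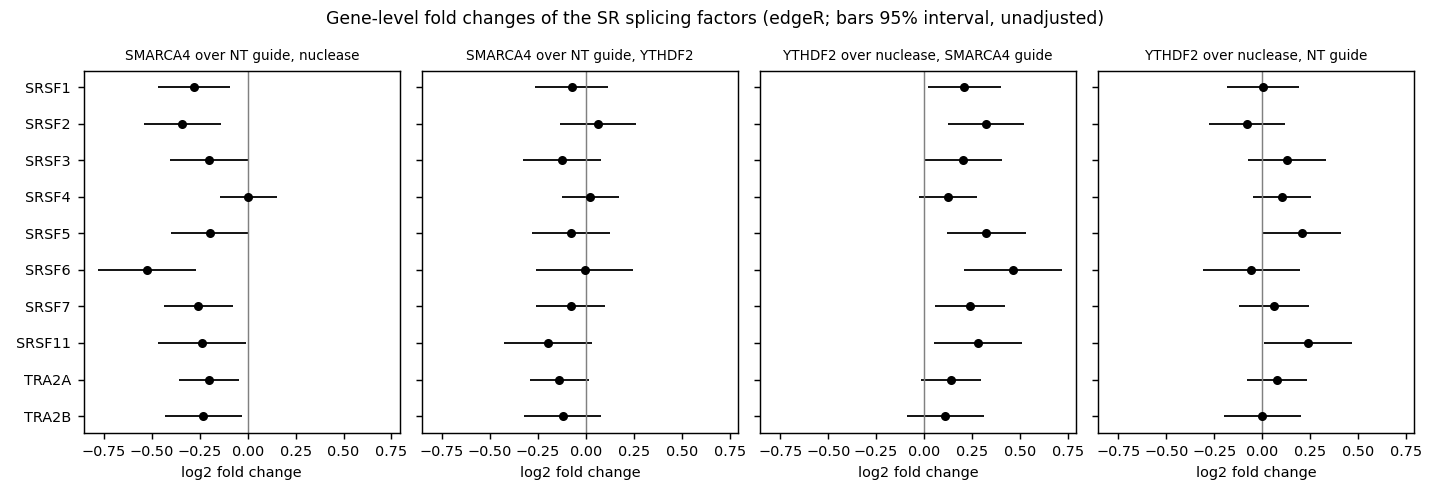
Log2 fold change (x axis) of each gene (y axis) with its 95% interval, unadjusted, for the SMARCA4 over the NT guide with the nuclease and with YTHDF2, and for YTHDF2 over the nuclease with the SMARCA4 and with the NT guide. The intervals use 8 degrees of freedom and are wider than edgeR's test implies. With the nuclease, SRSF5 (−0.402 to 0.009) and SRSF3 (−0.405 to 0.003) thus cross 0, at an unadjusted p of 0.0456 and 0.0402 in edgeR. For the nuclease 9 of 10 points lie below 0, with SRSF6 at −0.53, while with YTHDF2 the points lie between −0.20 and 0.07.

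Read by transcript class, 28 of the 30 class sums of the members that passed the count filter (productive, NMD, retained_intron and other) were lower in nuclease-SMARCA4 than in nuclease-NT, where 51.1% of all sums were, 13 of them without overlap (9.32% of all sums), and 1 was higher without overlap (9.48%). In edgeR 0 of 30 class sums were called, as were 0% of all class sums, and 12 sums were lower and 1 higher at an unadjusted p below 0.05, where 4.06% and 3.37% of all sums were. DESeq2 called 3, the protein_coding sum of SRSF6 and the NMD sums of SRSF7 and SRSF11. Protein_coding sums were below 0 for 9 of 10 genes (median −0.18, beside 0.01 over all protein_coding sums). Of the NMD sums, 8 passed the count filter and 7 of these were below 0 (median −0.64, beside −0.06 over all NMD sums tested), while SRSF11 was above. All 7 retained_intron sums that passed were below 0 (median −0.30, beside −0.09).

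The NMD models of SRSF7 summed to 36.3, 47.2 and 40.4 CPM in nuclease-SMARCA4, against 67.8, 72.1 and 63.7 CPM in nuclease-NT. There was no overlap, and the log2 fold change was −0.72 (SE 0.16, unadjusted p = 0.00094, adjusted p = 0.467 in edgeR). With YTHDF2 the SRSF7 NMD sums were 61.5, 94.0 and 77.2 CPM in YTHDF2-SMARCA4 and 69.9, 62.2 and 82.4 CPM in YTHDF2-NT, which overlapped. SRSF6-202 had 17.2, 13.4 and 24.7 CPM in nuclease-SMARCA4, against 24.7, 39.1 and 42.7 CPM in nuclease-NT, with edgeR's estimate at −0.95 on the log2 scale (SE 0.36; adjusted p = 0.612). Its highest nuclease-SMARCA4 library, at 24.66 CPM, lay just under the lowest nuclease-NT library, at 24.71 CPM. The productive SRSF6-201 went the same way, with 35.0, 37.2 and 45.9 TPM in nuclease-SMARCA4 against 51.2, 65.1 and 61.2 TPM in nuclease-NT. For SRSF2, the NMD model had 21.7, 37.6 and 35.8 CPM in nuclease-SMARCA4 against 49.6, 47.6 and 70.2 CPM in nuclease-NT, and the retained_intron sum differed by −0.49 on the log2 scale (SE 0.17, adjusted p = 0.596 in edgeR), while the protein_coding sum was at −0.11.

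For the guide with YTHDF2, 15 of the same 30 sums were below 0, where 51.2% of all sums were. Of these 30 sums, 0 were called in edgeR or DESeq2 (0% of all sums in edgeR). The direction differed by class. Protein_coding sums were below 0 for 8 of 10 genes (median −0.11, beside 0.00 over all protein_coding sums). Of the 8 NMD sums, 2 were below 0 and 6 above (median 0.16, beside 0.04 over all NMD sums tested). Of the 7 retained_intron sums, 3 were below 0 and 4 above (median 0.06, beside −0.05). Without YTHDF2-NT replicate 1 the NMD sum of SRSF6 stood at 0.36 in place of 0.71, and that of SRSF4 at −0.07 in place of 0.21. With the SMARCA4 guide all 30 were higher with YTHDF2 than with the nuclease, 17 without overlap (10.3% of all sums), where 48.2% of all sums were below 0. Of these, 10 had an unadjusted p below 0.05 (3.79% of all sums), 0 were called in edgeR (0.00386%), and DESeq2 called the NMD sum of SRSF7. That sum was higher by 0.91 on the log2 scale in YTHDF2-SMARCA4 than in nuclease-SMARCA4 (SE 0.16, unadjusted p = 0.000143, adjusted p = 0.346 in edgeR). In the test of the difference between the guide's effects, the NMD sums stood at 1.66 for SRSF6, 1.36 for SRSF4, 0.92 for SRSF3 and 0.83 for SRSF7, each at an unadjusted p below 0.05, and at −2.25 for SRSF11, with 0 of 30 sums called in edgeR (0% of all sums). In all, 7 of the 30 sums were higher and 1 lower at an unadjusted p below 0.05, where 3.29% and 4.21% of all sums were. YTHDF2-NT replicate 1 held 106 estimated counts of the SRSF6 NMD model and 11.8 of the SRSF4 NMD models, against 293 and 327, and 28.1 and 26.2, in YTHDF2-NT replicates 2 and 3. Without it the NMD sums stood at 1.31 for SRSF6, 1.08 for SRSF4, 0.80 for SRSF3, 0.82 for SRSF7 and −2.22 for SRSF11.

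Whether the balance between unproductive and productive RNA differed was read from the stop-holding exons, as the TPM of all models that carry the exon over that of carriers and of models that skip it. For the 1 exon shown per gene, this share stood lower in nuclease-SMARCA4 than in nuclease-NT for all 6 genes, without overlap for SRSF3, SRSF4, SRSF7 and SRSF11, where 6.02% of the 997 genes with such an exon were lower without overlap and 53.1% had a ratio below 0. With limma on log2 ratios 0 of the 6 were called, as were 0% of the 997 genes, and 1, SRSF4, had an unadjusted p below 0.05, where 3.01% of the 997 were lower at that level. The median log2 difference of the 6 was −0.46, beside −0.05 for all 997. A lower unproductive share was not particular to these genes. Over all genes, NMD and retained_intron models held 9.79%, 9.85% and 9.83% of the TPM in nuclease-SMARCA4. In nuclease-NT they held 10.03%, 10.22% and 10.25%, without overlap. The exon share was added after the class sums had been seen. For SRSF11 most of the carriers' TPM was on SRSF11-201, a protein_coding model. Its share thus sets mainly productive models beside each other and does not measure the balance of unproductive and productive RNA.

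The SRSF3 exon was on 15.1%, 14.8% and 15.0% of the summed TPM in nuclease-SMARCA4, against 16.99%, 16.4% and 17.3% in nuclease-NT (log2 ratio −0.21, SE 0.30, adjusted p = 0.967 in limma). The SRSF7 exon was on 5.15%, 6.92% and 5.94% in nuclease-SMARCA4, against 9.31%, 8.46% and 8.15% in nuclease-NT (log2 ratio −0.57, SE 0.30, adjusted p = 0.959 in limma). For both genes the nuclease groups stood apart without passing the test. Most of the SRSF3 carriers' abundance was on SRSF3-207, a retained_intron model, with 53.2, 58.3 and 67.6 TPM in nuclease-SMARCA4 against 80.5, 84.7 and 75.8 TPM in nuclease-NT. The SRSF4 exon was rare, at 1.43%, 1.07% and 0.742% in nuclease-SMARCA4 against 2.29%, 2.24% and 2.08% in nuclease-NT (log2 ratio −1.02, SE 0.35, adjusted p = 0.826 in limma), and rested on few reads: the models with the exon held 64.2, 40.8 and 36.4 estimated counts in nuclease-SMARCA4 and 63.6, 83.0 and 47.8 in nuclease-NT, which overlapped. The exons of SRSF6 (25.3%, 19.1% and 27.4% against 26.2%, 31.04% and 34.2%) and TRA2B (12.3%, 15.1% and 20.8% against 18.8%, 17.8% and 21.1%) overlapped between nuclease-SMARCA4 and nuclease-NT.

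SRSF3, SRSF4 and SRSF7 each have a further stop-holding exon, on a less abundant NMD model. That of SRSF4 stood on the same side as the exon shown, and those of SRSF3 and SRSF7 on the other side. The exon of SRSF4-204 was on 1.43%, 1.13% and 1.24% in nuclease-SMARCA4, against 2.29%, 2.24% and 2.08% in nuclease-NT, lower without overlap. Its carriers include SRSF4-206, the model of the exon shown. The exon of SRSF3-204 was on 1.37%, 2.34% and 1.30% in nuclease-SMARCA4, against 1.21%, 0.996% and 0.0188% in nuclease-NT, higher without overlap, and rested on 27.3, 54.4 and 28.4 estimated counts in nuclease-SMARCA4 against 28.2, 27.2 and 0.337 in nuclease-NT. The exon of SRSF7-207 was on 9.49%, 4.54% and 2.07% in nuclease-SMARCA4, against 3.99%, 3.03% and 0% in nuclease-NT, with overlap. None of these further exons was tested, and the lower shares of SRSF3 and SRSF7 above hold for the exons of SRSF3-203 and SRSF7-204 alone.

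With YTHDF2 the exon shares stood mostly on the other side of 0. The SRSF3 exon was on 20.9%, 17.12% and 19.1% in YTHDF2-SMARCA4 and 10.9%, 17.08% and 16.1% in YTHDF2-NT, and the SRSF6 exon on 28.5%, 26.8% and 30.0% against 8.88%, 24.2% and 22.0% in the same order. In both, YTHDF2-NT replicate 1 had the lowest share of the 12 libraries, and without it the log2 ratio was 0.24 in place of 0.47 for SRSF3 and 0.40 in place of 0.93 for SRSF6, while SRSF4 stood at −0.04 in place of 0.20 and TRA2B at 0.13 in place of −0.03. Of the 6 genes, 5 had a ratio above 0, where 44.3% of the 997 genes were below 0, and SRSF3, by a narrow margin, and SRSF6 did so without overlap, where 5.92% were. In limma 0 of the 6 were called (0% of all) and 0 had an unadjusted p below 0.05, where 1.4% were lower and 2.21% higher at that level. The difference between the guide's effects was above 0 for all 6 genes, up to 1.41 for SRSF6 and 1.22 for SRSF4, where 43.9% of the 997 genes were below 0, and limma called 0 of them, as it did 0% of all genes. At an unadjusted p below 0.05, 2 of the 6 were higher, SRSF4 and SRSF7, where 2.41% of the 997 were, and neither was without YTHDF2-NT replicate 1, where SRSF6 stood at 0.88 and SRSF4 at 0.98. With the SMARCA4 guide all 6 exons had a higher ratio with YTHDF2 than with the nuclease, where 43.3% of the 997 genes were below 0, 4 of them without overlap (7.02% of all). The ratio was 0.80 for SRSF11 and 0.73 for SRSF7, the 2 with an unadjusted p below 0.05 (2.41% of all were higher at that level), and limma called 0 of the 6. Each count over the 6 genes includes SRSF11, whose share sets mainly productive models beside each other and does not measure that balance. Under the NT guide the SRSF6 exon was at −1.07 with YTHDF2, the 1 member lower at an unadjusted p below 0.05 (3.01% of the 997 genes were), and at −0.54 without YTHDF2-NT replicate 1.

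**Figure D4:**
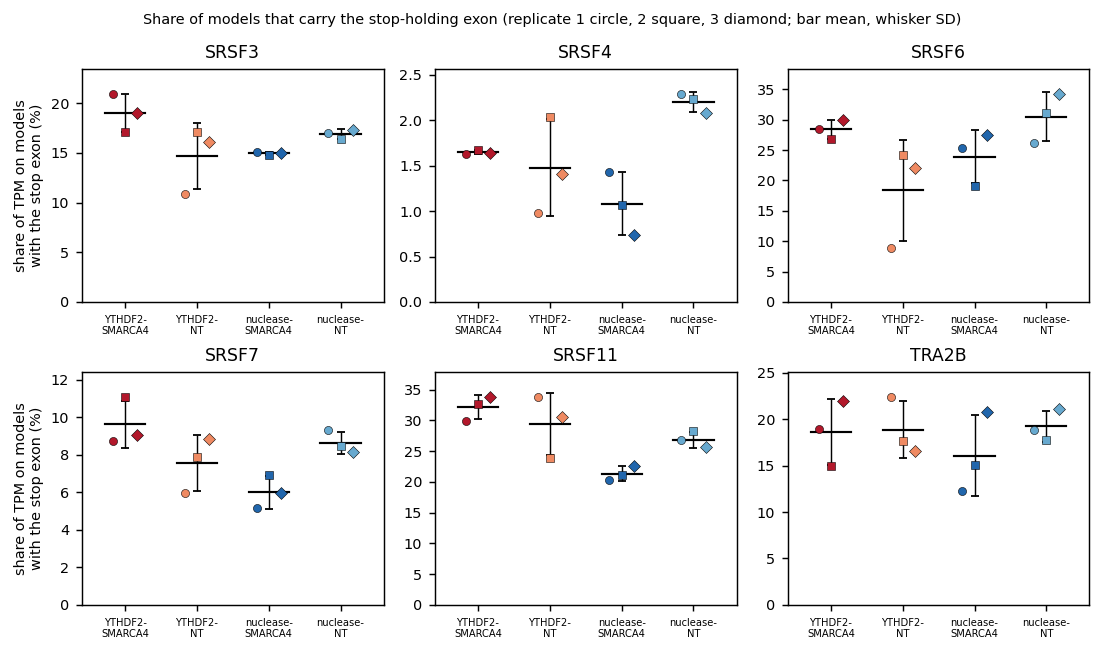
Share of the summed TPM on models that carry the stop-holding exon (y axis, percent) for 6 genes in each library, by group (x axis), with points for replicates 1 to 3, a bar for the mean and a whisker for the SD. The SRSF7 exon lies at 5.15% to 6.92% in nuclease-SMARCA4 against 8.15% to 9.31% in nuclease-NT, and YTHDF2-NT replicate 1 is the lowest library for SRSF3 (10.9%) and SRSF6 (8.88%).

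By annotated class alone, SRSF11 was the single member called for its unproductive ratio, the TPM of NMD and retained_intron models over that of protein_coding models. SRSF11 has 0 retained_intron models, so its ratio rests on NMD models alone. The ratio was higher in nuclease-SMARCA4 than in nuclease-NT by 2.72 on the log2 scale (SE 0.31, adjusted p = 0.0236 in limma over 5088 genes), and it was the only call among those genes in this comparison (0.0197%). Every nuclease-SMARCA4 library lay above every nuclease-NT library, as for 3.89% of all genes. The NMD models SRSF11-211 and SRSF11-212 had together 3.25, 2.80 and 3.12 TPM in nuclease-SMARCA4, against 0.508, 0.700 and 0.367 TPM in nuclease-NT. They had 4.26, 4.15 and 4.52 TPM in YTHDF2-SMARCA4 and 2.76, 2.61 and 3.87 TPM in YTHDF2-NT, so the nuclease-NT libraries were the low group. These values rested on 25.7, 23.7 and 21.5 estimated counts in nuclease-SMARCA4 and on 3.45, 5.66 and 1.93 in nuclease-NT. YTHDF2-NT over nuclease-NT gave a ratio of 2.44 (SE 0.31, adjusted p = 0.0632 in limma), and the difference between the guide's effects was −2.30 (adjusted p = 0.495). The call was lost with the replicate number as a block (adjusted p = 0.7 in limma) and with a pseudocount of 1 TPM, where the ratio was 1.77 (adjusted p = 0.0871). It was also lost when any of several libraries was left out: the adjusted p in limma was 0.0586 and 0.164 without nuclease-NT replicates 1 and 3, 0.107, 0.193 and 0.138 without nuclease-SMARCA4 replicates 1, 2 and 3, 0.0542 without YTHDF2-NT replicate 3, and 0.0765 and 0.0781 without YTHDF2-SMARCA4 replicates 1 and 3.

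The stop-holding exon of SRSF11 pointed the other way. Most of its TPM was on SRSF11-201, a model labelled protein_coding, which had 12.9, 12.4 and 17.6 TPM in nuclease-SMARCA4 against 25.9, 28.7 and 26.8 TPM in nuclease-NT, without overlap (log2 fold change −0.81, SE 0.17, unadjusted p = 0.000881, adjusted p = 1 in edgeR over 49518 models, and called by DESeq2). It had 26.3, 34.4 and 30.6 TPM in YTHDF2-SMARCA4 and 27.6, 24.8 and 29.5 TPM in YTHDF2-NT, which overlapped. All models with the exon held 20.3%, 21.1% and 22.6% in nuclease-SMARCA4, against 26.8%, 28.2% and 25.6% in nuclease-NT. SRSF11-202, the main productive model, which skips the exon, had 38.5, 37.5 and 41.3 TPM in nuclease-SMARCA4 and 40.4, 41.1 and 41.2 TPM in nuclease-NT. Of the 31-base words of SRSF11-211 and SRSF11-212, 7.7% each are found in no other model of the gene, and 10.6% of those of SRSF11-201.

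**Figure D5:**
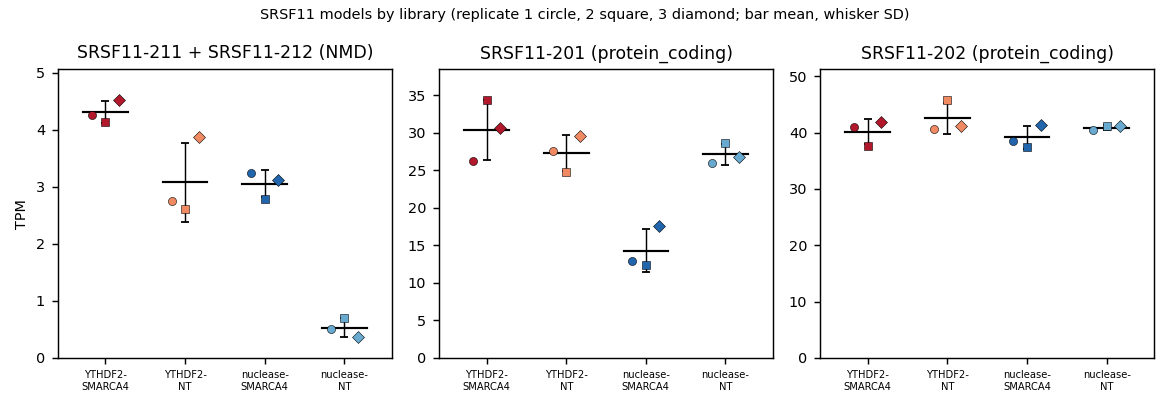
TPM (y axis) of the 2 NMD models of SRSF11 summed, of SRSF11-201 and of SRSF11-202 in each library, by group (x axis), with points for replicates 1 to 3, a bar for the mean and a whisker for the SD. The NMD models are lowest in nuclease-NT (0.367 to 0.700 TPM), SRSF11-201 is lowest in nuclease-SMARCA4 (12.4 to 17.6 TPM), and SRSF11-202 stays between 37.5 and 45.7 TPM.

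None of the other 9 genes was called for this ratio in limma in any comparison, and 1 of them, SRSF4, was lower at an unadjusted p below 0.05 for the nuclease guide, where 3.6% of all genes were. For SRSF3 the unproductive share was 20.4% ± 0.532 in nuclease-SMARCA4 and 20.1% ± 0.467 in nuclease-NT, and for SRSF7 it was 12.05% ± 3.29 in nuclease-SMARCA4 and 11.7% ± 1.89 in nuclease-NT (SD, n = 3 each). Both overlapped, so the lower share of the exons shown for these genes did not appear in this ratio, whose intervals were −0.55 to 0.60 for SRSF3 and −0.80 to 0.84 for SRSF7 on the log2 scale. The unproductive share of SRSF1 was 35.6% ± 0.888 in YTHDF2-SMARCA4, 36.6% ± 1.51 in YTHDF2-NT, 34.9% ± 0.233 in nuclease-SMARCA4 and 36.3% ± 3.64 in nuclease-NT (SD, n = 3 each), and the log2 ratio for the nuclease, −0.08, had an interval of −0.65 to 0.49. That of SRSF2 was 65.1%, 65.7% and 65.1% in nuclease-SMARCA4, below the 68.1%, 70.8% and 72.0% of nuclease-NT, and 84.3% in YTHDF2-NT replicate 1. SRSF4, a large SR protein, had 1.43%, 1.13% and 1.24% in nuclease-SMARCA4, against 2.29%, 2.50% and 2.08% in nuclease-NT (log2 ratio −0.82, SE 0.31, adjusted p = 0.815 in limma). SRSF4 and SRSF2 were thus the 2 genes of the 10 that were lower without overlap, where 7.29% of all genes were. The unproductive share of SRSF5 came from retained_intron models only, at 21.4% ± 0.314 in YTHDF2-SMARCA4, 18.3% ± 4.21 in YTHDF2-NT, 15.3% ± 2.14 in nuclease-SMARCA4 and 17.3% ± 1.61 in nuclease-NT (SD, n = 3 each). That of TRA2A varied most between replicates, with 23.9%, 7.64% and 4.23% within YTHDF2-SMARCA4.

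Of the single models, 76 of the 113 passed the count filter. For the nuclease comparison 15 were lower and 1 higher at an unadjusted p below 0.05, where 2.48% and 2.18% of all models were, and edgeR called 0 of them, where 0.00202% of all models were. DESeq2 called SRSF11-201, SRSF6-201 and SRSF7-204. SRSF7-204 had 7.18, 13.1 and 10.9 TPM in nuclease-SMARCA4, against 21.3, 23.9 and 24.1 TPM in nuclease-NT, without overlap (log2 fold change −1.03, SE 0.25, unadjusted p = 0.00211, adjusted p = 1 in edgeR).

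Among other genes of the pathway, edgeR called none of the 88 genes of 5 lists in any of the 5 comparisons. The lists, too, were chosen with earlier results of these data known, so their counts are descriptive. For the nuclease guide, 50.1% of all genes tested were below 0 and 6.23% were lower at an unadjusted p below 0.05. Of 14 other SR proteins and SR-protein kinases, 8 were below 0 for the nuclease guide, 5 of them at an unadjusted p below 0.05 and 1 above (median −0.04, beside 0.00 for all genes). The kinase CLK1 averaged 57.5 ± 0.49 CPM in YTHDF2-SMARCA4 and 37.3 ± 2.54 CPM in nuclease-SMARCA4 (SD, n = 3 each), which edgeR put at 0.62 on the log2 scale (SE 0.09; adjusted p = 0.0663), and SRSF8 and the kinase CLK4 had the smallest p of this list for the nuclease guide, at −0.37 and −0.48 (adjusted p = 0.173 and 0.211 in edgeR). Of 21 SR-related splicing factors, 17 were below 0 for the nuclease guide, 10 of them at an unadjusted p below 0.05 (median −0.14). Pinin (PNN), a component of splicing-associated complexes, averaged 168 ± 9.36 CPM in nuclease-SMARCA4 and 207 ± 15.6 CPM in nuclease-NT, a log2 fold change of −0.30 (adjusted p = 0.212 in edgeR), and BCLAF1, an SR-related protein, was at −0.40 (adjusted p = 0.142). Among 21 other RNA-binding proteins with unproductive splicing, 13 were below 0 for the nuclease guide, with 1 lower, PTBP2 at −0.29, and 1 higher, HNRNPA1 at 0.21, at an unadjusted p below 0.05 (median −0.05).

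No gene of the decay machinery was called. The counts below for the nuclease guide stand beside 50.1% of all genes below 0 and 6.23% lower at an unadjusted p below 0.05. Of 16 NMD and exon junction complex factors, 14 were below 0 for the nuclease guide, 4 of them at an unadjusted p below 0.05 (median −0.13), led by the endonuclease SMG6 at −0.33 (SE 0.11, adjusted p = 0.298 in edgeR) and the helicase DHX34 at −0.27. Of 16 mRNAs whose levels follow NMD, 9 were below 0 for the nuclease guide, 3 of them at an unadjusted p below 0.05 and 1 above (median −0.06). The snoRNA host transcript SNHG15 averaged 62.1 ± 10.7 CPM in nuclease-SMARCA4 and 97.9 ± 8.75 CPM in nuclease-NT (SD, n = 3 each), which edgeR put at −0.66 on the log2 scale (SE 0.15; adjusted p = 0.173), and SNHG12 was at −0.72 (adjusted p = 0.211). For YTHDF2 over the nuclease with the SMARCA4 guide the list medians were 0.22 for the other SR proteins and kinases, 0.22 for the SR-related factors, 0.00 for the other RNA-binding proteins, 0.10 for the NMD factors and 0.18 for the mRNAs that follow NMD, beside 0.00 for all genes.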

How the data were processed

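Messenger RNA of 12 HEK-293T libraries in 4 groups of 3 was compared. The authors deposited 1 table per library of estimated counts and of TPM values per transcript, and the submitters' processing notes name kallisto, sleuth and hg38; per the file headers each row has both values. Versions, strand setting and index word length are not given in the sources used here. All 113 member models matched GENCODE v29 by ID, length and class. Kallisto splits reads between models that share sequence, so low or overlapping models are uncertain. The members and gene lists were chosen with earlier results of these data known.

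Estimated counts were summed per gene and per gene and class, rounded, and tested with edgeR 4.0.16 (quasi-likelihood, TMM, filterByExpr, 4 group means over all 12 libraries, 8 residual degrees of freedom) in R 4.3.3. Library totals of 9207196 to 18047859 counts gave a biological coefficient of variation of 11.4% for genes. Log2 ratios of deposited TPM, with 0.1 TPM added and a mean of at least 0.5 TPM on both sides, were tested with limma 3.58.1. A model carried an exon when it covered at least 50% of it. Tests were two-sided, with Benjamini-Hochberg adjustment over all features and calls at 0.05. Intervals of edgeR estimates used 8 degrees of freedom and can cross 0 at an unadjusted p just below 0.05. DESeq2 1.42.0 and other settings were alternatives. Scripts were tested on simulated data. Words of 31 bases were compared among models of a gene. All members were described at the gene level, with the most abundant model per gene and class and all called models or ratios, and from each list the 2 genes of smallest p where none was called. SRSF11-201 and the processed_transcript models of the closing section were named after their values were seen, as was the exon share.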

Additional observations from a re-analysis of the deposited data

How the results depend on the processing

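No member value with an unadjusted p below 0.05 at the gene level turned its direction under the alternatives, including when each library was left out, nor did the SRSF11 ratio for the nuclease guide. Calls depended on the setting. The share of all features called under each alternative is not given here, so these counts of called members lack that background. For the nuclease guide, members called at the gene level numbered 2 with DESeq2, 2 with no filter on low counts and 5 when only the 2 groups were fitted (SRSF1, SRSF2, SRSF6, SRSF7 and SRSF11), against 0. For YTHDF2 over the nuclease with the SMARCA4 guide they numbered 2, 2 and 5 (SRSF2, SRSF5, SRSF6, SRSF7 and SRSF11) in the same order, and with no filter 1 (SRSF6) for the difference of guide effects. The cause was not tested. Leaving out single libraries gave 0 to 1 called genes for the YTHDF2 guide and for YTHDF2 over the nuclease with NT, the 1 being SRSF11 without YTHDF2-NT replicate 2. It gave 0 to 2 class sums for YTHDF2 over the nuclease with NT (NMD of SRSF11 and retained_intron of SRSF3), and 0 to 1 models for the YTHDF2 guide and for YTHDF2 over the nuclease with NT (SRSF1-201), all without that same library. DESeq2 called 3 class sums and 3 models for the nuclease guide, and 1 class sum and 2 models for YTHDF2 over the nuclease with the SMARCA4 guide, against 0 in edgeR.

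The number of members lower at an unadjusted p below 0.05 for the nuclease guide was 5 without nuclease-NT replicate 2, 4 without nuclease-NT replicate 3, and 5 without nuclease-SMARCA4 replicate 1 or replicate 2, against 9. For YTHDF2 over the nuclease with the SMARCA4 guide it was 4 without nuclease-SMARCA4 replicate 1 or YTHDF2-SMARCA4 replicate 2, against 7. The SRSF11 unproductive ratio for the nuclease guide was not called (0 members) with a pseudocount of 1 TPM (1.77), with no minimum TPM, with retained_intron models alone (of which SRSF11 has 0), with only the 2 groups, with the replicate block, and in 0 to 1 when single libraries were left out (2.53 to 2.90). For YTHDF2 over the nuclease with NT it was called, as 1 gene, with estimated counts, with NMD models alone, and in 0 to 1 when libraries were left out. Replicate numbers did not pair the libraries (correlation of same-numbered deviations −0.0571 to 0.0553). With the replicate block the SRSF11 ratio of 2.72 had an adjusted p of 0.7 in limma, and the block changed no other call among the members. Depth limits the models of few counts, such as the NMD models of SRSF11 and SRSF4.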

Other observations

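Models labelled processed_transcript hold much of the RNA assigned to SRSF1 and SRSF11 and are on neither side of the unproductive ratio. The short SRSF1-203, with 2 exons in 438 bases, had 93.9, 107 and 108 TPM in YTHDF2-SMARCA4, 179, 103 and 131 TPM in YTHDF2-NT, 84.1, 79.2 and 90.8 TPM in nuclease-SMARCA4 and 86.0, 122 and 101 TPM in nuclease-NT. SRSF11-208 had 48.9, 66.8 and 61.6 TPM in YTHDF2-SMARCA4, 110.3, 54.6 and 82.8 TPM in YTHDF2-NT, 39.8, 38.9 and 46.0 TPM in nuclease-SMARCA4 and 57.9, 66.7 and 69.3 TPM in nuclease-NT. SRSF11-205 reached 112 TPM in YTHDF2-NT replicate 1, against 37.5 to 80.3 TPM in the other libraries. The same library had the lowest productive SRSF2-202, at 41.9 TPM, against 80.8 to 117 TPM in the other libraries. Transcripts of SRSF1-203 and SRSF11-208 were thus highest, and SRSF2-202 lowest, in YTHDF2-NT replicate 1, the library whose values followed gene length with a rho of −0.49.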
